A study of Homo sapiens with 16 samples.

Results

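The genes described here are those of cholesterol synthesis, of intracellular cholesterol transport and storage, and of the SREBP system that sets both. They were a list of 27 gene symbols, and their probe sets were the rows of an array table annotated with exactly 1 of these symbols. Where a gene had several probe sets, the brightest on average was used. This gave values for 25 of the 27 genes, among 19775 genes measured: 16 of the 18 synthesis enzymes, and all 9 genes of SREBP control, transport and storage. CYP51A1, whose probe sets were annotated with several genes, and FDFT1 were not analysed here. The samples were 4 biological replicates (A to D) of each of 4 groups, and their RNA was hybridised to 16 Affymetrix U133 Plus 2.0 arrays. The groups were MDA-MB-231 cells given 50 mM 2-deoxy-glucose (2DG), MDA-MB-231 cells given water as vehicle, MCF10A cells given 50 mM 2DG and MCF10A cells given water. Both treatments lasted 24 h. MDA-MB-231 comes from a breast cancer, and MCF10A is an immortalized mammary epithelial line that forms no tumours. 2DG is a glucose analogue that hexokinase phosphorylates but glycolysis cannot use further, and the study used it to inhibit glucose metabolism. All cells grew in medium with 17.5 mM glucose. The serum was fetal bovine for MDA-MB-231 and horse for MCF10A, and MCF10A also received hydrocortisone, cholera toxin, insulin and epidermal growth factor, so that line and medium cannot be told apart. Each line is 1 established culture, and a difference between them is one between these cultures.

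Cells make cholesterol from acetyl-CoA through mevalonate, the isoprenoid diphosphates, squalene and lanosterol, and the later enzymes turn lanosterol into cholesterol. SREBPs are membrane-bound transcription factors that SCAP carries from the endoplasmic reticulum to the Golgi, where proteases release the active part, and INSIG proteins hold the complex back when sterols are plentiful. Cholesterol taken up in lipoproteins leaves the lysosome through NPC2 and NPC1, is carried through the cytosol by proteins such as STARD4, and is stored as esters made by SOAT1.

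SREBPs bind sterol response elements (SRE) and E-boxes such as CACGTG, and their partner NF-Y binds CCAAT boxes. These motifs were searched in RefSeq promoters of GRCh38.p14 (250 bases before to 50 bases after a gene's start). Promoters were found for 24 of the 27 genes, which had 31 in all. The letters TCACNCCAC, searched on both strands, were in 1.13% of all 35116 promoters and in 1 of these 31, that of SREBF2. The letters CCAAT, on either strand, were in 34.6% of all promoters and in 20 of the 31, which belonged to 18 genes. The palindrome CACGTG was in 7.26% of all promoters and in 5 of the 31, which belonged to INSIG1, LSS, SC5D and SCAP. None of these motifs overlaps another in the 4 promoters printed here. A match of letters is a description of the window and no evidence of binding. The promoters of 4 genes are printed because their genes stand for the patterns below: SREBF2, the gene with the SRE letters and higher with 2DG in both lines; MSMO1, a late enzyme higher in both lines; and FDPS and PMVK, mevalonate enzymes lower in both lines. Capitals mark TCACCCCAC in SREBF2 and CCAAT, or its reverse complement ATTGG, in SREBF2, MSMO1 and FDPS. Each runs 5′ to 3′ on the strand of its gene. The SRE letters of SREBF2 lie at -133 to -125 from the start. MSMO1 holds 4 CCAAT boxes, FDPS 3, SREBF2 1 and PMVK 0.
SREBF2, chr22:41832855-41833154, + strand: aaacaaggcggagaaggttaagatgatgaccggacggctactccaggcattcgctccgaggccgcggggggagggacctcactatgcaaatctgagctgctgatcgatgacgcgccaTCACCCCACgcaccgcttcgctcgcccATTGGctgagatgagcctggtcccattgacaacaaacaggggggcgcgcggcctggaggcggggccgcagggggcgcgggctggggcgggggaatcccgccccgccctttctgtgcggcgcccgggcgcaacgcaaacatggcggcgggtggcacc
MSMO1, chr4:165327419-165327718, + strand: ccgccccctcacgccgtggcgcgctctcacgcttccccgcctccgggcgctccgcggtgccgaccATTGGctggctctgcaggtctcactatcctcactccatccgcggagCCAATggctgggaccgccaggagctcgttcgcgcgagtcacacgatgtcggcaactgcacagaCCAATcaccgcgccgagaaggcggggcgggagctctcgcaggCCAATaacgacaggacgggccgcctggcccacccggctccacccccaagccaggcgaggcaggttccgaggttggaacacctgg
FDPS, chr1:155308616-155308915, + strand: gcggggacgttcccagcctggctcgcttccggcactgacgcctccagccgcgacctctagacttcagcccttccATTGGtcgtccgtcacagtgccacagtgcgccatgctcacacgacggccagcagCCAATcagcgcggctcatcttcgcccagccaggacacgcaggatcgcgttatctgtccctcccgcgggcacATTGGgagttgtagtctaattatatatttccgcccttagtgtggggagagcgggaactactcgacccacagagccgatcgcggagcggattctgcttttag
PMVK, chr1:154936670-154936969, - strand: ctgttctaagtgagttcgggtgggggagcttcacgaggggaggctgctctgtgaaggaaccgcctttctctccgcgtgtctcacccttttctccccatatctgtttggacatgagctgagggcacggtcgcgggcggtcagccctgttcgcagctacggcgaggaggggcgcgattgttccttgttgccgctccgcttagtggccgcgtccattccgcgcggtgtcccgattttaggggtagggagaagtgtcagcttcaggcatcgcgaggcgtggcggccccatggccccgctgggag

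All values are log2 values after RMA, and every change is a difference of group means on that scale. Arrays of a group correlated at 0.9977 to 0.9985 over all genes, and the median SD of the described genes over the 4 arrays of a group was 0.0565. The epithelial genes CDH1, EPCAM, KRT5 and KRT14 were lower in MDA-MB-231 than in MCF10A on vehicle (changes of -8.44, -2.07, -6.28 and -8.72), and the mesenchymal genes ZEB1, VIM and FN1 were higher (3.54, 0.67 and 0.41). The log2 3'/5' ratio of the actin control probe sets, a measure of RNA integrity, was 1.03 ± 0.0714 (SD, n = 4) with 2DG and 0.598 ± 0.331 on vehicle in MDA-MB-231, and 0.55 ± 0.0678 with 2DG and 0.392 ± 0.067 on vehicle in MCF10A. The mean ratio was higher with 2DG than on vehicle in each line. MDA-MB-231 vehicle replicate B stood at 1.09, above the 0.38 to 0.47 of the other vehicle arrays of its line, and results that rest on this array are given with and without it. The 2DG arrays of this line ran from 0.97 to 1.13. Without replicate B, no vehicle array of MDA-MB-231 had a ratio in that range, so 2DG and RNA integrity cannot then be told apart. Cells were compared in bulk, so that fewer cells of a kind and less RNA per cell cannot be told apart.

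With 2DG, the enzymes that lead from acetyl-CoA to farnesyl diphosphate were mostly lower on the probe sets used. The enzymes from squalene onward were mixed: several rose and others fell, among them EBP in both lines. The lysosomal exporters NPC1 and NPC2 were higher. A gene was called at a limma adjusted p (Benjamini-Hochberg over all 19775 genes) under 0.05. In MDA-MB-231, 9 of the 25 genes (36%) rose and 11 (44%) fell, with a median change of -0.09, where 25.5% of all genes rose and 25.4% fell, with a median of 0.03. In MCF10A, 12 of the 25 (48%) rose and 8 (32%) fell, with a median of 0.08, where 29% of all genes rose and 25.2% fell, with a median of 0.02. Of the 25, 8 rose in both lines (MVK, SQLE, LSS, MSMO1, SC5D, SREBF2, NPC1 and NPC2), 5 fell in both (ACAT2, HMGCS1, PMVK, FDPS and EBP) and 3 were called in opposite directions (DHCR7, INSIG2 and STARD4). The other genes were called in 1 line, 4 in each, except MVD, which was called in neither. The share of all 19775 genes with each of these joint patterns was not computed, so these counts are a description only. The 16 synthesis genes gave the same counts in both lines, 6 higher and 7 lower, while the 9 genes of control and transport were 3 higher and 4 lower in MDA-MB-231 and 6 higher and 1 lower in MCF10A. With the actin ratio as a covariate, every call of the 25 genes in MCF10A kept its direction and its side of the threshold. In MDA-MB-231 the calls of MVK, SREBF2 and INSIG2 were then lost (adjusted p = 0.213, 0.289 and 0.0864) and SCAP was called lower. Within groups the ratio varied mainly through MDA-MB-231 vehicle replicate B (SD 0.331 in its group, 0.067 to 0.0714 in the others). The adjustment therefore rests largely on this array. The MCF10A groups differed little in the ratio (0.55 with 2DG and 0.392 on vehicle), so this check could hardly change their calls.

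**Figure D1:**
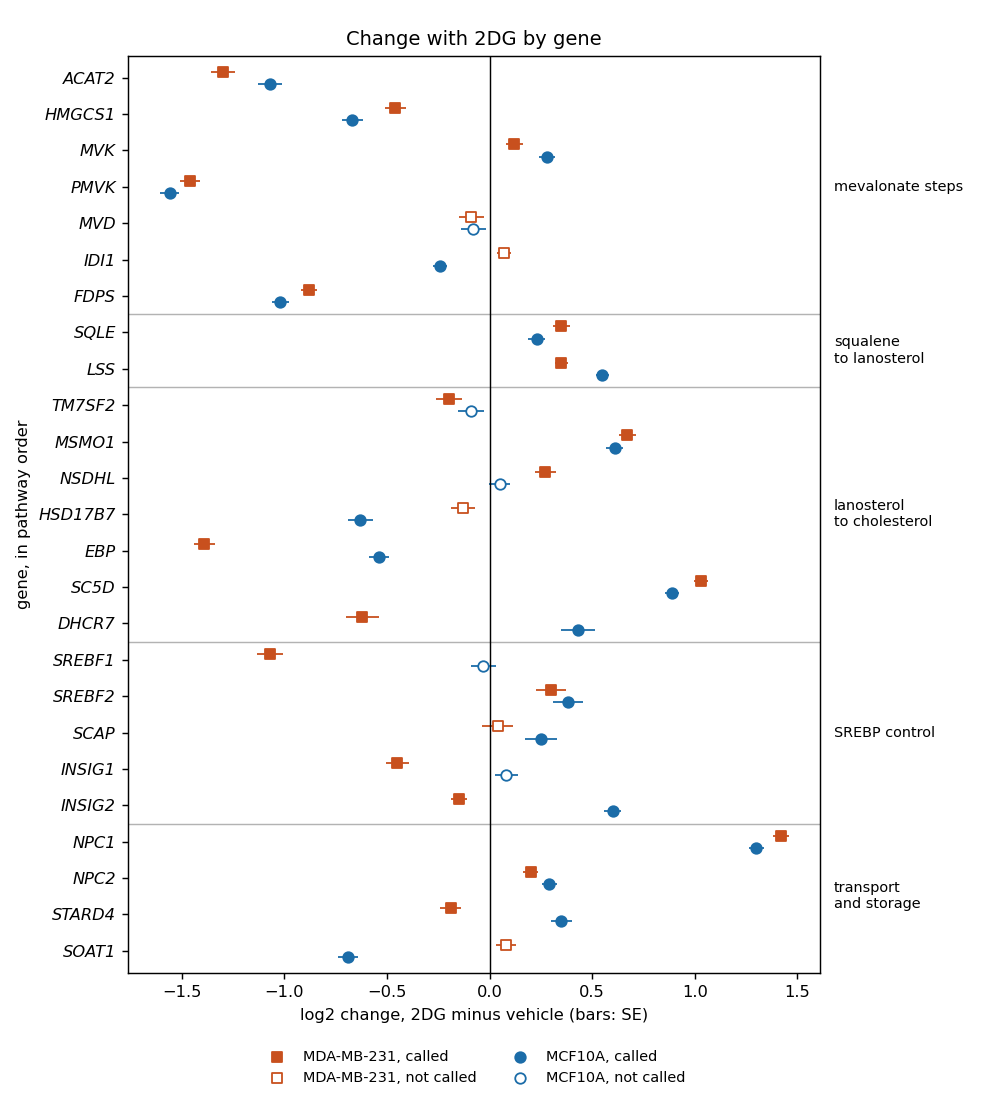
Change of each of the 25 genes with 2DG, as the log2 difference of 2DG minus vehicle (x axis), with genes in pathway order (y axis); squares are MDA-MB-231, circles MCF10A, bars the SE, and open symbols genes that were not called. PMVK (-1.46 and -1.56) and NPC1 (1.42 and 1.30) lie far out on opposite sides in both lines, and DHCR7, INSIG2 and STARD4 lie on opposite sides of 0 in the lines.

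Of the 7 mevalonate enzymes, 4 fell (57.1%) and 1 rose (14.3%) in MDA-MB-231, with a median change of -0.46. In MCF10A, 5 fell (71.4%) and 1 rose (14.3%), with a median of -0.67. Over all genes, 25.4% fell and 25.5% rose in MDA-MB-231, and 25.2% fell and 29% rose in MCF10A. PMVK, which phosphorylates phosphomevalonate, stood in MDA-MB-231 at 8.35, 8.43, 8.48 and 8.57 on the 2DG arrays, against 9.90, 9.90, 9.95 and 9.94 on the vehicle arrays. In MCF10A, PMVK stood at 9.18, 9.30, 9.29 and 9.17 on the 2DG arrays, against 10.77, 10.83, 10.75 and 10.83 on the vehicle arrays. Every 2DG array lay below every vehicle array of its line, by more than 1 log2 unit, and the change was -1.46 ± 0.0471 (SE, n = 4 per group, adjusted p = 2.1e-13) in MDA-MB-231 and -1.56 ± 0.0471 (adjusted p = 4.42e-14) in MCF10A, which is 2.76-fold and 2.95-fold lower. The responses of PMVK did not pass the test of a difference between the lines (0.09 ± 0.0666, 95% interval -0.05 to 0.24, adjusted p = 0.285).

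ACAT2, the cytosolic thiolase that joins acetyl-CoA units at the head of the pathway, stood in MDA-MB-231 at 10.09, 10.04, 10.18 and 10.07 on the 2DG arrays, against 11.34, 11.47, 11.40 and 11.36 on the vehicle arrays. In MCF10A, ACAT2 stood at 10.12, 10.21, 10.16 and 9.90 on the 2DG arrays, against 11.14, 11.20, 11.19 and 11.16 on the vehicle arrays. The groups did not overlap in either line, and MCF10A 2DG replicate D was the lowest of its group. ACAT2 changed by -1.30 ± 0.0572 (adjusted p = 8.18e-12) in MDA-MB-231 and by -1.07 ± 0.0572 (adjusted p = 5.62e-11) in MCF10A. It was higher in MDA-MB-231 than in MCF10A on vehicle (0.22 ± 0.0572, adjusted p = 0.00333), and under 2DG the group means were 10.09 and 10.10.

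FDPS, which makes farnesyl diphosphate for sterols, prenylated proteins and ubiquinone alike, stood in MDA-MB-231 at 11.22, 11.21, 11.13 and 11.23 on the 2DG arrays, against 12.11, 12.07, 12.06 and 12.07 on the vehicle arrays. In MCF10A, FDPS stood at 12.46, 12.50, 12.39 and 12.34 on the 2DG arrays, against 13.43, 13.40, 13.50 and 13.43 on the vehicle arrays. Each group of 4 arrays lay apart from the other 3 groups. FDPS changed by -0.88 ± 0.04 in MDA-MB-231 (adjusted p = 1.19e-11) and by -1.02 ± 0.04 in MCF10A (adjusted p = 1.22e-12). HMGCS1, the cytosolic HMG-CoA synthase, fell by 0.46 in MDA-MB-231 and by 0.67 in MCF10A, and its 4 means were 7.96 with 2DG and 8.42 on vehicle in MDA-MB-231, and 10.11 with 2DG and 10.78 on vehicle in MCF10A. A further HMGCS1 probe set gave -0.38 in MDA-MB-231 and -1.52 in MCF10A.

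The other mevalonate enzymes moved little. MVK, mevalonate kinase, rose by 0.12 in MDA-MB-231 (adjusted p = 0.0245) and by 0.28 in MCF10A (adjusted p = 1.58e-05). The call in MDA-MB-231 was lost when any of vehicle replicates A and C and 2DG replicates B and C was left out (0.09 to 0.11, adjusted p = 0.0503 to 0.0855). It was also lost with only the compared groups in the fit (0.12, adjusted p = 0.0688) and on the mean of the MVK probe sets (0.02, adjusted p = 0.679). Dimmer MVK probe sets gave 0.07, -0.19 and 0.08 in MDA-MB-231, none of them called. In MCF10A they gave 0.19, 0.06 and 0.01, of which the first was called (adjusted p = 0.0188). MVD, the decarboxylase that yields isopentenyl diphosphate, changed by -0.09 ± 0.0606 in MDA-MB-231 and -0.08 ± 0.0606 in MCF10A, neither of which passed the test (adjusted p = 0.246 and 0.281). IDI1, the isomerase that follows MVD, changed by 0.07 ± 0.0341 (adjusted p = 0.0812) in MDA-MB-231 and fell by 0.24 in MCF10A (adjusted p = 1.15e-05). Its dimmer probe sets gave -0.21, 0.21 and 0.58 in MCF10A, each called, so that its direction there depends on the probe set.

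Both measured enzymes between squalene and lanosterol rose in both lines on the probe sets used, beside 25.5% of all genes in MDA-MB-231 and 29% in MCF10A. SQLE, the squalene epoxidase, ranged from 9.70 to 9.84 with 2DG and from 9.36 to 9.50 on vehicle in MDA-MB-231, and from 12.75 to 12.80 with 2DG and from 12.51 to 12.57 on vehicle in MCF10A. The groups of a line did not overlap, and SQLE rose by 0.35 (adjusted p = 1.51e-06) in MDA-MB-231 and by 0.23 (adjusted p = 0.000177) in MCF10A. Dimmer SQLE probe sets gave 0.58, 0.08 and -0.18 in MDA-MB-231, of which only the first was called (adjusted p = 1.21e-06, 0.604 and 0.152). In MCF10A they gave 0.26, 0.24 and 0.64, of which the second was not called (adjusted p = 0.0736). LSS, which closes the sterol rings to give lanosterol, ranged from 9.84 to 9.88 with 2DG and from 9.45 to 9.55 on vehicle in MDA-MB-231, and from 11.17 to 11.22 with 2DG and from 10.61 to 10.67 on vehicle in MCF10A. Its rise was 0.35 in MDA-MB-231 and 0.55 in MCF10A, a difference of response of -0.20 ± 0.0446 (adjusted p = 0.00119). This difference was 0.13 (adjusted p = 0.235) when the probe sets of LSS were averaged.

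The 7 measured enzymes from lanosterol to cholesterol split, with 3 higher (42.9%) and 3 lower (42.9%) in MDA-MB-231 (median change -0.13). In MCF10A, 3 were higher (42.9%) and 2 lower (28.6%), with a median of 0.05. Over all genes, 25.5% rose and 25.4% fell in MDA-MB-231, and 29% rose and 25.2% fell in MCF10A. These counts are a description of few genes. SC5D, the desaturase that acts on lathosterol, stood in MDA-MB-231 at 10.49, 10.55, 10.46 and 10.51 on the 2DG arrays, against 9.43, 9.44, 9.55 and 9.47 on the vehicle arrays. In MCF10A, SC5D stood at 11.78, 11.76, 11.79 and 11.76 on the 2DG arrays, against 10.89, 10.87, 10.90 and 10.87 on the vehicle arrays. All 2DG arrays were above all vehicle arrays of their line by close to 1 log2 unit, with a change of 1.03 ± 0.0338 in MDA-MB-231 (adjusted p = 2.66e-13) and 0.89 ± 0.0338 in MCF10A (adjusted p = 7.9e-13). The only other SC5D probe set, a dimmer one, gave -0.40 in MDA-MB-231 (adjusted p = 0.0169) and -0.35 in MCF10A (adjusted p = 0.0331), so the direction depends on the probe set. MSMO1, the methylsterol monooxygenase that starts the removal of a methyl pair from the sterol ring, ranged from 11.43 to 11.53 with 2DG and from 10.78 to 10.81 on vehicle in MDA-MB-231, and from 13.26 to 13.44 with 2DG and from 12.74 to 12.82 on vehicle in MCF10A. It rose by 0.67 in MDA-MB-231 and by 0.61 in MCF10A, and the difference of response did not pass the test (95% interval -0.06 to 0.18, adjusted p = 0.46).

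EBP, the isomerase that shifts the double bond of the sterol ring, stood in MDA-MB-231 at 8.96, 8.98, 9.0 and 9.19 on the 2DG arrays, against 10.41, 10.44, 10.48 and 10.37 on the vehicle arrays. In MCF10A, EBP stood at 11.65, 11.58, 11.54 and 11.49 on the 2DG arrays, against 12.14, 12.10, 12.07 and 12.10 on the vehicle arrays. The 4 groups lay apart from each other, with MDA-MB-231 2DG lowest and MCF10A vehicle highest. EBP changed by -1.39 ± 0.0503 in MDA-MB-231 (2.63-fold lower, adjusted p = 7.51e-13) and by -0.54 ± 0.0503 in MCF10A (adjusted p = 7.87e-08), and the responses differed by -0.85 ± 0.0711 (adjusted p = 3.81e-08). Of the 3 dimmer EBP probe sets, the first gave -1.14 in MDA-MB-231 and -0.60 in MCF10A, with a difference of -0.54 (adjusted p = 1.54e-05). The second gave -0.45 and -0.39, both called, and the third 0.01 and -0.13, neither called. The difference of response did not pass the test on these last probe sets (-0.06 and 0.13, adjusted p = 0.737 and 0.33).

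DHCR7, the reductase whose step yields cholesterol, stood in MDA-MB-231 at 8.33, 8.58, 8.54 and 8.58 on the 2DG arrays, against 9.19, 9.28, 8.92 and 9.14 on the vehicle arrays. In MCF10A, DHCR7 stood at 10.35, 10.34, 10.32 and 10.11 on the 2DG arrays, against 9.79, 9.82, 10.00 and 9.77 on the vehicle arrays. The 2DG arrays were the lower ones in MDA-MB-231 and the higher ones in MCF10A, without overlap in either line. The change was -0.62 ± 0.0823 (adjusted p = 5.59e-06) in MDA-MB-231 and 0.43 ± 0.0823 (adjusted p = 0.000229) in MCF10A, and the difference of response was -1.06 ± 0.116 (adjusted p = 9.85e-07). The other DHCR7 probe set gave -0.52 in MDA-MB-231 and 0.36 in MCF10A, both called, so the opposite directions were seen on both.

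The other enzymes of this stretch were HSD17B7, a keto reductase of the sterol ring, NSDHL, a decarboxylating sterol dehydrogenase, and TM7SF2, a sterol reductase. HSD17B7 changed by -0.13 ± 0.0592 in MDA-MB-231 (adjusted p = 0.0819) and by -0.63 ± 0.0592 in MCF10A (adjusted p = 9.27e-08). Without MDA-MB-231 vehicle replicate B it was called in MDA-MB-231 too (-0.16, adjusted p = 0.0446). HSD17B7 has a near-identical pseudogene, which makes its values uncertain. NSDHL rose by 0.27 in MDA-MB-231 (adjusted p = 0.000308) and changed by 0.05 ± 0.0512 in MCF10A (adjusted p = 0.402), and its other probe set gave 0 in MDA-MB-231 (adjusted p = 0.968). TM7SF2 fell by 0.20 in MDA-MB-231 (adjusted p = 0.0139) and changed by -0.09 ± 0.0638 in MCF10A (adjusted p = 0.263). Leaving out MDA-MB-231 2DG replicate C ended the first of these calls (-0.17, adjusted p = 0.0512), and leaving out MCF10A 2DG replicate C made a call in MCF10A (-0.15, adjusted p = 0.0352).

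**Figure D2:**
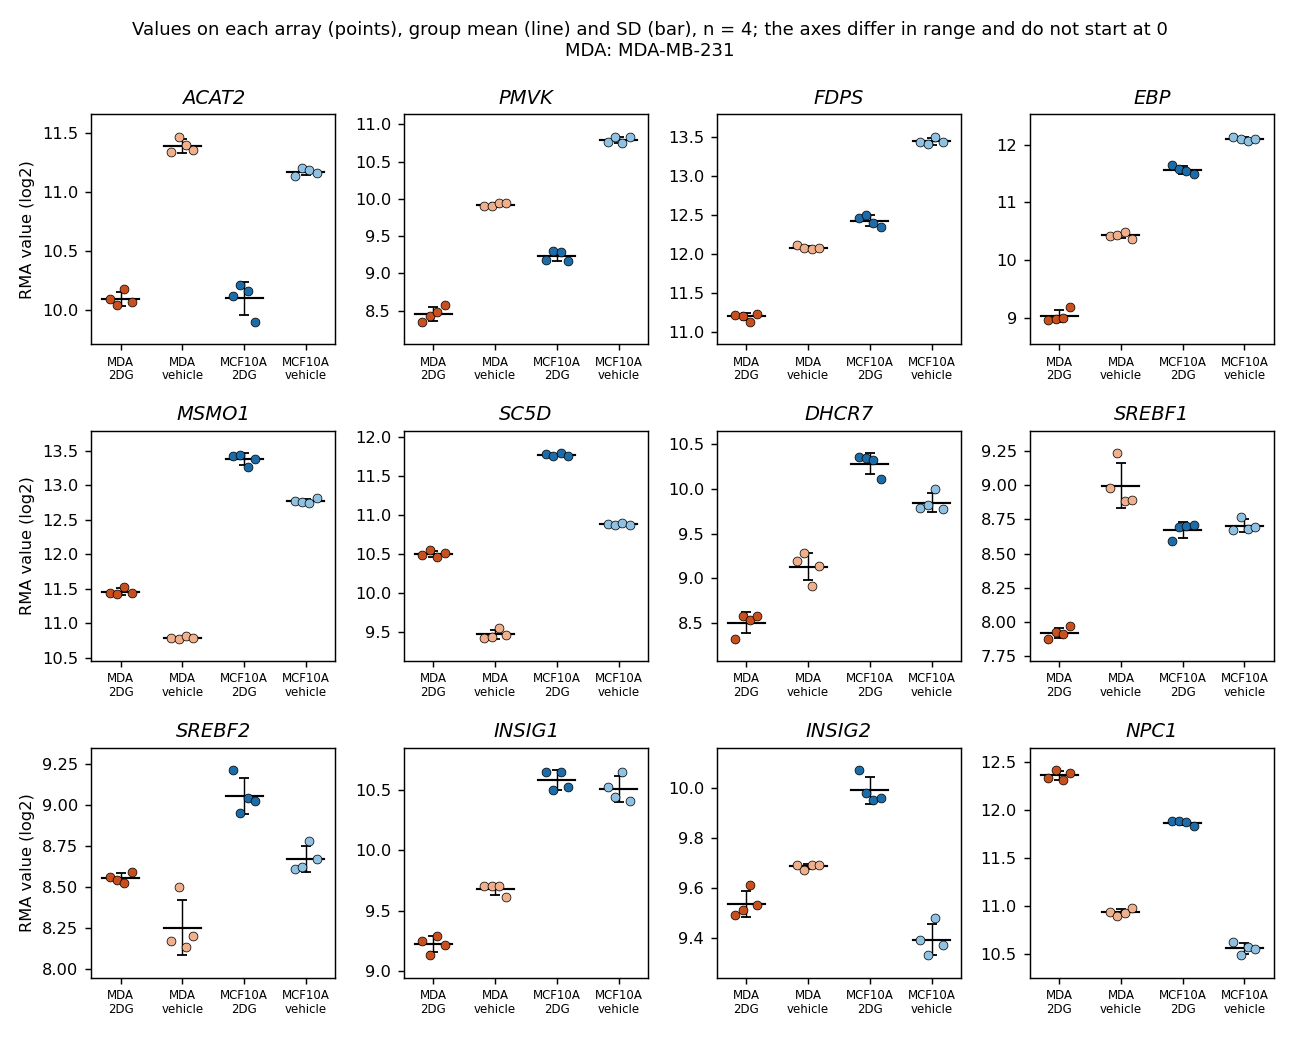
RMA value (log2, y axis) of 12 genes on every array (points) in the 4 groups (x axis), with the group mean (line) and SD (bar), n = 4; the y axes differ in range and do not start at 0. The 2DG arrays of both lines lie below their vehicle arrays for ACAT2, PMVK, FDPS and EBP and above them for MSMO1, SC5D and NPC1, while DHCR7 and INSIG2 run in opposite directions in the lines.

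The 5 genes of SREBP control were 1 higher (20%) and 3 lower (60%) in MDA-MB-231, with a median change of -0.15. In MCF10A they were 3 higher (60%) and 0 lower, with a median of 0.25. Over all genes, 25.5% rose and 25.4% fell in MDA-MB-231, and 29% rose and 25.2% fell in MCF10A. SREBF1, which encodes the SREBP best known for fatty acid synthesis, stood in MDA-MB-231 at 7.88, 7.93, 7.91 and 7.97 on the 2DG arrays, against 8.98, 9.23, 8.88 and 8.89 on the vehicle arrays. In MCF10A, SREBF1 stood at 8.59, 8.69, 8.70 and 8.71 on the 2DG arrays, against 8.67, 8.77, 8.68 and 8.69 on the vehicle arrays. The MDA-MB-231 groups lay about 1 log2 unit apart, with vehicle replicate B the highest array, while the MCF10A groups overlapped. SREBF1 changed by -1.07 ± 0.0628 in MDA-MB-231 (2.10-fold lower, adjusted p = 2.7e-10) and by -0.03 ± 0.0628 in MCF10A (adjusted p = 0.73), and the responses differed by -1.04 ± 0.0888 (adjusted p = 5.06e-08). Without replicate B the change in MDA-MB-231 was -0.99 (adjusted p = 2.96e-11). The other SREBF1 probe set gave 0.15 in MDA-MB-231 and 0.07 in MCF10A, and neither was called (adjusted p = 0.082 and 0.404).

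SREBF2, which encodes the SREBP best known for the cholesterol genes, stood in MDA-MB-231 at 8.56, 8.54, 8.52 and 8.59 on the 2DG arrays, against 8.17, 8.50, 8.13 and 8.20 on the vehicle arrays. In MCF10A, SREBF2 stood at 9.21, 8.95, 9.04 and 9.02 on the 2DG arrays, against 8.61, 8.62, 8.78 and 8.67 on the vehicle arrays. The 2DG arrays were above the vehicle arrays in both lines, by a narrow margin in MDA-MB-231, where vehicle replicate B was the nearest. The rise was 0.30 ± 0.0733 in MDA-MB-231 (adjusted p = 0.00221) and 0.38 ± 0.0733 in MCF10A (adjusted p = 0.000243). Without replicate B it was 0.39 in MDA-MB-231 (adjusted p = 2.9e-05), and with the actin ratio as a covariate 0.11 (adjusted p = 0.289). Replicate B is the only vehicle array of this line with an actin ratio (1.09) in the range of the 2DG arrays (0.97 to 1.13). The value without it therefore cannot tell 2DG from RNA integrity. The other SREBF2 probe sets gave 0.62 and 0.24 in MDA-MB-231, both called, and 1.15 and 0.14 in MCF10A, of which the first was called. SREBF2 is also the gene whose promoter, printed above, holds the SRE letters.

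INSIG1, a retention protein of the SCAP complex, stood in MDA-MB-231 at 9.25, 9.13, 9.29 and 9.22 on the 2DG arrays, against 9.70, 9.70, 9.70 and 9.61 on the vehicle arrays. In MCF10A, INSIG1 stood at 10.65, 10.50, 10.65 and 10.52 on the 2DG arrays, against 10.52, 10.44, 10.65 and 10.41 on the vehicle arrays. The MDA-MB-231 groups did not overlap and the MCF10A groups did. INSIG1 changed by -0.45 ± 0.0558 in MDA-MB-231 (adjusted p = 2.43e-06) and 0.08 ± 0.0558 in MCF10A (adjusted p = 0.287), with a difference of response of -0.53 ± 0.0789 (adjusted p = 2.85e-05). Its probe sets disagreed: the dimmest rose by 0.52 in MDA-MB-231 (adjusted p = 0.000238) and by 0.33 in MCF10A (adjusted p = 0.00858). The mean of the INSIG1 probe sets gave -0.06 (adjusted p = 0.462) in MDA-MB-231.

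INSIG2, the paralog of INSIG1, stood in MDA-MB-231 at 9.49, 9.51, 9.61 and 9.53 on the 2DG arrays, against 9.69, 9.67, 9.69 and 9.69 on the vehicle arrays. In MCF10A, INSIG2 stood at 10.07, 9.98, 9.95 and 9.96 on the 2DG arrays, against 9.39, 9.33, 9.48 and 9.37 on the vehicle arrays. The 2DG arrays were below the vehicle arrays in MDA-MB-231 and above them in MCF10A, without overlap in either. INSIG2 changed by -0.15 ± 0.0405 in MDA-MB-231 (adjusted p = 0.00501) and by 0.60 ± 0.0405 in MCF10A (adjusted p = 1.31e-09), and the responses differed by -0.75 ± 0.0573 (adjusted p = 1.47e-08). The INSIG2 call in MDA-MB-231 was lost with the actin ratio as a covariate (-0.13, adjusted p = 0.0864). SCAP, the escort protein of the SREBPs, rose by 0.25 in MCF10A (adjusted p = 0.00972) and changed by 0.04 ± 0.0761 in MDA-MB-231 (adjusted p = 0.673). In MDA-MB-231 its vehicle arrays read 9.82, 10.26, 9.79 and 9.85, and without replicate B, the second of these, the change was 0.15 (adjusted p = 0.00113). With the actin ratio as a covariate SCAP was lower with 2DG in MDA-MB-231 (-0.21, adjusted p = 0.00857).

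Among the 4 genes of transport and storage, 2 rose (50%) and 1 fell (25%) in MDA-MB-231, with a median change of 0.14. In MCF10A, 3 rose (75%) and 1 fell (25%), with a median of 0.32. Over all genes, 25.5% rose and 25.4% fell in MDA-MB-231, and 29% rose and 25.2% fell in MCF10A. NPC1, the membrane protein that exports cholesterol from the lysosome, stood in MDA-MB-231 at 12.33, 12.41, 12.31 and 12.38 on the 2DG arrays, against 10.94, 10.90, 10.93 and 10.98 on the vehicle arrays. In MCF10A, NPC1 stood at 11.88, 11.88, 11.87 and 11.83 on the 2DG arrays, against 10.63, 10.49, 10.58 and 10.56 on the vehicle arrays. All 2DG arrays of a line were more than 1 log2 unit above all its vehicle arrays. NPC1 rose by 1.42 ± 0.037 in MDA-MB-231 (2.68-fold, adjusted p = 2e-14) and by 1.30 ± 0.037 in MCF10A (2.46-fold, adjusted p = 2.16e-14), and the responses did not pass the test of a difference (95% interval 0.01 to 0.23, adjusted p = 0.0755). Dimmer NPC1 probe sets gave 0.54, 0.49 and 0 in MDA-MB-231 and 0.19, 1.32 and -0.07 in MCF10A. NPC2, which hands cholesterol to NPC1 inside the lysosome, rose by 0.20 in MDA-MB-231 (adjusted p = 0.000189) and by 0.29 in MCF10A (adjusted p = 2.43e-06).

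STARD4, a cytosolic sterol carrier, stood in MDA-MB-231 at 9.60, 9.62, 9.62 and 9.46 on the 2DG arrays, against 9.71, 9.84, 9.78 and 9.71 on the vehicle arrays. In MCF10A, STARD4 stood at 10.18, 10.15, 10.17 and 9.98 on the 2DG arrays, against 9.81, 9.78, 9.75 and 9.74 on the vehicle arrays. Replicate D was the lowest 2DG array in both lines, and the groups did not overlap in either. STARD4 changed by -0.19 ± 0.0512 in MDA-MB-231 (adjusted p = 0.00591) and by 0.35 ± 0.0512 in MCF10A (adjusted p = 1.58e-05), with a difference of response of -0.54 ± 0.0723 (adjusted p = 1.03e-05). SOAT1, which esterifies cholesterol for storage, fell by 0.69 in MCF10A (adjusted p = 1.37e-09) and changed by 0.08 ± 0.047 in MDA-MB-231 (adjusted p = 0.166). Its other probe sets were called lower in both lines, at -2.15 and -0.77 in MDA-MB-231 and -1.57 and -0.33 in MCF10A, so that the call of SOAT1 in MDA-MB-231 depends on the probe set.

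**Figure D3:**
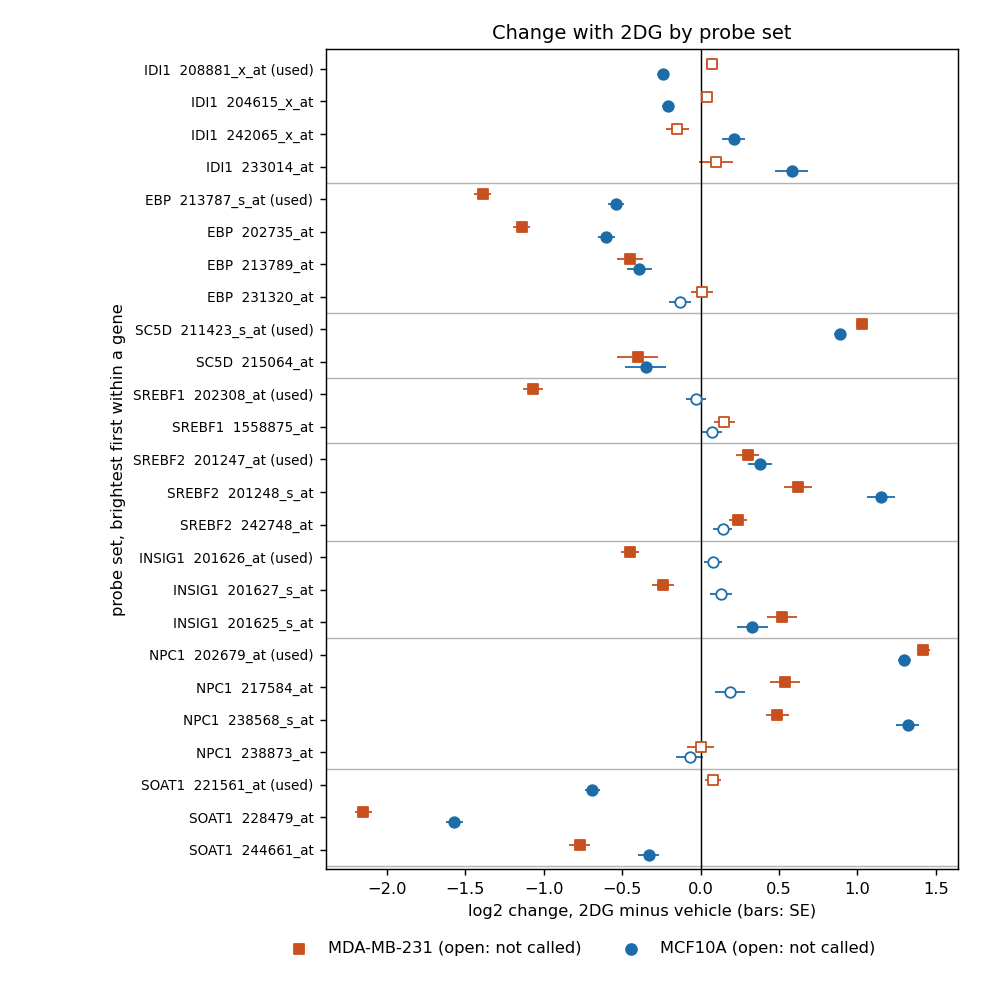
Change with 2DG (log2, x axis; bars: SE) on every probe set of 8 genes (y axis, brightest first within a gene); squares are MDA-MB-231, circles MCF10A, and open symbols were not called. The probe sets of SOAT1 gave -2.15, -0.77 and 0.08 in MDA-MB-231, and called changes lay on both sides of 0 for SC5D in both lines, INSIG1 in MDA-MB-231 and IDI1 in MCF10A.

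Several probe sets were present for 14 of the 25 genes. In MDA-MB-231, at least 1 probe set had the opposite sign to the one used for 8 of these genes, and for SC5D, INSIG1 and SOAT1 such a probe set was called. In MCF10A this was so for 5 genes, of which IDI1 and SC5D had called changes in both directions. The other genes rest on 1 probe set each: ACAT2, PMVK, MVD, FDPS, TM7SF2, MSMO1, HSD17B7, SCAP, INSIG2, NPC2 and STARD4.

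The responses of the lines to 2DG differed for 15 of the 25 genes: 6 were higher in MDA-MB-231 relative to MCF10A (24%, beside 22.3% of all genes) and 9 were lower (36%, beside 23.6% of all genes), with a median difference of -0.08, against 0.01 over all genes. The synthesis genes were 5 higher and 5 lower, and the genes of control and transport 1 higher and 4 lower. Of the 5 SREBP control genes, SREBF1, INSIG1 and INSIG2 had the lower response in MDA-MB-231 and SREBF2 and SCAP did not pass the test (95% intervals -0.30 to 0.14 and -0.44 to 0.02). SOAT1 had the highest difference, 0.77 ± 0.0664, which was -0.08 (adjusted p = 0.281) on the mean of its probe sets. DHCR7 had the lowest. The difference for ACAT2 of -0.22 passed narrowly (adjusted p = 0.0336) and was lost when any of 10 of the 16 arrays was left out. The differences for MVK, NSDHL, SC5D and HMGCS1 were also lost under some settings, as given in the closing section. Those for SREBF1, EBP, INSIG1, MVK, NSDHL and SC5D were not called on every probe set. For INSIG1 the dimmest gave 0.19 (adjusted p = 0.321). The difference for IDI1 was called with the opposite sign on dimmer probe sets (-0.36 and -0.49, adjusted p = 0.00939 and 0.0149). That for LSS was so on a dimmer probe set too (0.40, adjusted p = 0.0211).

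The synthesis genes were mostly lower in MDA-MB-231 than in MCF10A, whether with 2DG or without. On vehicle, 17 of the 25 genes (68%) were lower in MDA-MB-231 than in MCF10A and 6 (24%) were higher, with a median of -0.65, where 26.8% of all genes were lower and 29.2% higher, with a median of 0. Of the 16 synthesis genes, 14 were lower and 1 higher, with a median of -1.01 over all 16, while the 9 genes of control and transport were 5 higher and 3 lower, with a median of 0.22. The line comparisons use the same arrays as the 2DG comparisons. SQLE averaged 9.44 ± 0.0712 in MDA-MB-231 and 12.54 ± 0.0275 in MCF10A on vehicle (SD, n = 4 each), -3.10 ± 0.0415 apart or 8.59-fold lower in MDA-MB-231 (adjusted p = 2.25e-18). HMGCS1 was 5.12-fold, MSMO1 3.94-fold, EBP 3.20-fold, SC5D 2.66-fold and FDPS 2.57-fold lower in MDA-MB-231. IDI1 gave -1.39 on the probe set used and 0.96 on its only probe set that is not shared between transcripts. ACAT2 was the synthesis gene higher in MDA-MB-231 (0.22 ± 0.0572), and TM7SF2 did not pass the test (0.10 ± 0.0638, adjusted p = 0.196).

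Among the regulators on vehicle, SREBF2 (-0.42 ± 0.0733) and INSIG1 (-0.83 ± 0.0558) were lower in MDA-MB-231 than in MCF10A, and SREBF1 (0.29 ± 0.0628), INSIG2 (0.29 ± 0.0405) and SCAP (0.22 ± 0.0761) were higher. Without MDA-MB-231 vehicle replicate B the values for SREBF2, SREBF1 and SCAP were -0.50, 0.21 and 0.11, and each was still called. The call of SCAP was lost with the actin ratio as a covariate (0.10, adjusted p = 0.0703), with only the compared groups in the fit (0.22, adjusted p = 0.079) and without MCF10A vehicle replicate C (0.21, adjusted p = 0.0506). That of SREBF1 was lost on the mean of its probe sets (0.07, adjusted p = 0.33). Of the transport genes, SOAT1 (0.57 ± 0.047) and NPC1 (0.37 ± 0.037) were higher and NPC2 (-0.20 ± 0.0363) was lower in MDA-MB-231. The 2 dimmer SOAT1 probe sets gave -0.12 (adjusted p = 0.0961) and 0.23 (adjusted p = 0.00901). STARD4 did not pass the test (-0.01 ± 0.0512, 95% interval -0.12 to 0.10).

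Under 2DG, 19 of the 25 genes (76%) were lower in MDA-MB-231 than in MCF10A and 2 (8%) were higher, with a median of -0.66, where 28.8% of all genes were lower and 30.7% higher, with a median of 0.02. The genes of control and transport were then 2 higher and 6 lower, with a median of -0.45. On the probe sets used, SREBF1 and INSIG2, both higher in MDA-MB-231 on vehicle, were lower there under 2DG (-0.75 ± 0.0628 and -0.45 ± 0.0405). The other SREBF1 probe set was not called in either condition (-0.08 under 2DG, adjusted p = 0.322, and -0.16 on vehicle, adjusted p = 0.0596). NPC1 (0.49 ± 0.037) and SOAT1 (1.34 ± 0.047) were higher in MDA-MB-231 under 2DG on the probe sets used. Both dimmer SOAT1 probe sets were called lower there (-0.70 and -0.21, adjusted p = 6.37e-09 and 0.0126), as was 1 of the 3 dimmer NPC1 probe sets (-0.73, adjusted p = 2.29e-07), so the direction depends on the probe set. EBP was 5.79-fold lower in MDA-MB-231 under 2DG and 3.20-fold lower on vehicle, and DHCR7 3.42-fold lower under 2DG and 1.64-fold lower on vehicle.

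**Figure D4:**
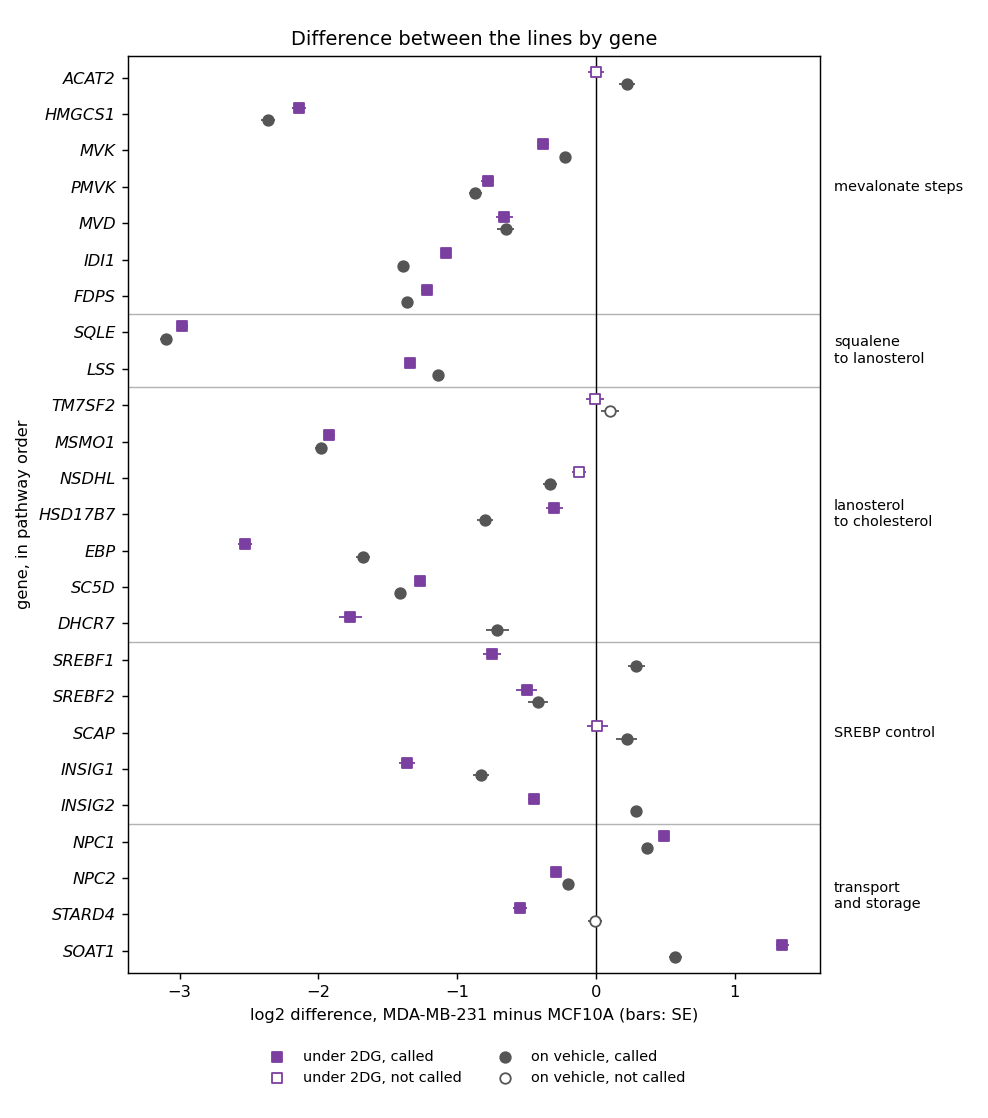
Difference between the lines for each of the 25 genes, as log2 MDA-MB-231 minus MCF10A (x axis), in pathway order (y axis); squares are under 2DG, circles on vehicle, bars the SE, and open symbols genes that were not called. Most synthesis genes lie left of 0 in both conditions, with SQLE at -2.98 and -3.10, and SREBF1 and INSIG2 lie on opposite sides of 0 in the conditions.

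Set against each gene's own mean over the 16 arrays, the synthesis genes had a median level of -0.59 in MDA-MB-231 with 2DG, -0.30 in MDA-MB-231 on vehicle, 0.39 in MCF10A with 2DG and 0.54 in MCF10A on vehicle. For the genes of control and transport these medians were -0.08, -0.05, 0.31 and -0.04. The medians of the synthesis genes lay apart by line, but single genes such as ACAT2, PMVK and TM7SF2 did not, and the median of the genes of control and transport was highest in MCF10A with 2DG. In MDA-MB-231 with 2DG, 9 synthesis genes had their lowest mean of the 4 groups, and 7 had it in MDA-MB-231 on vehicle. The highest mean lay in MCF10A with 2DG for 7 synthesis genes, in MCF10A on vehicle for 7, and in MDA-MB-231 on vehicle for 2, ACAT2 and TM7SF2. Of the 7 mevalonate genes, 5 were highest in MCF10A on vehicle, and of the 7 genes from lanosterol to cholesterol, 4 were highest in MCF10A with 2DG. The same medians and counts were not computed over all genes, so those given here are a description only.

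**Figure D5:**
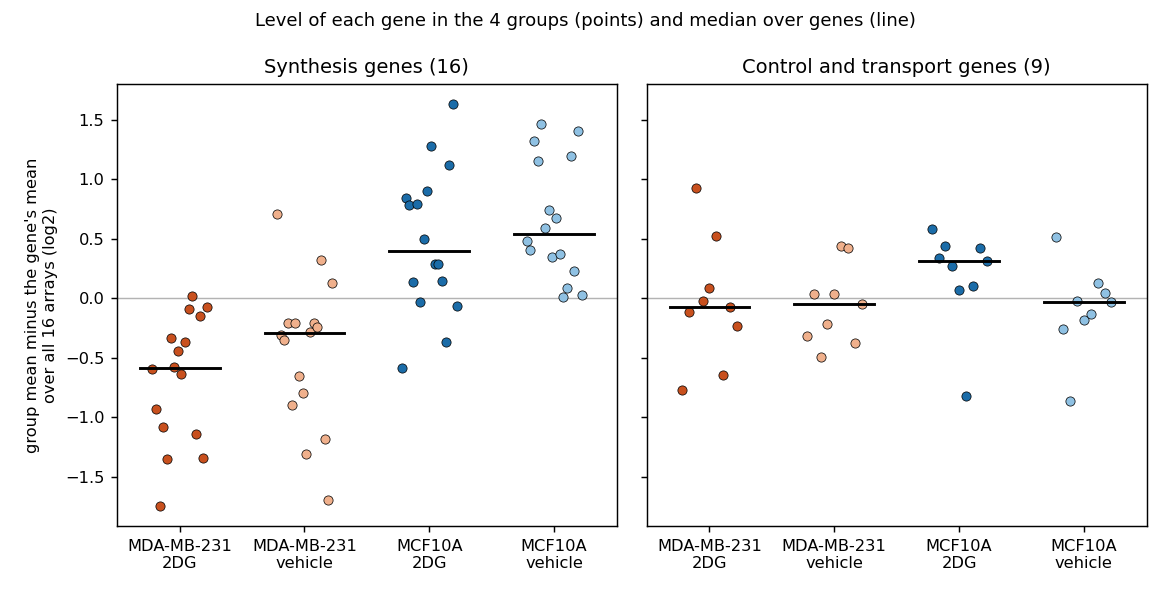
Group mean of each gene minus its own mean over all 16 arrays (log2, y axis) in the 4 groups (x axis), for the 16 synthesis genes (left) and the 9 genes of control and transport (right); points are genes and lines the median over genes. The synthesis medians run from -0.59 in MDA-MB-231 with 2DG to 0.54 in MCF10A on vehicle, and those of control and transport lie between -0.08 and 0.31.

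Of 30 other genes of the pathway, listed for the branches, the cleavage machinery and sterol transport, 28 had values. These were read on the brightest probe set alone, and their other probe sets and the alternative settings were not examined. With 2DG, 10 rose (35.7%) and 13 fell (46.4%) in MDA-MB-231, beside 25.5% and 25.4% of all genes. In MCF10A, 14 rose (50%) and 13 fell (46.4%), beside 29% and 25.2% of all genes. In the branches that draw on farnesyl diphosphate, PDSS1, a subunit of the synthase of the ubiquinone side chain, changed by -1.29 in MDA-MB-231 and by -1.96 in MCF10A (adjusted p = 2.88e-13 and 9e-16), and COQ2, which attaches that side chain, changed by -1.28 in MDA-MB-231 and by -1.76 in MCF10A (adjusted p = 1.5e-13 and 1.42e-15). GGPS1, the geranylgeranyl diphosphate synthase, rose by 1.43 in MDA-MB-231 and by 0.98 in MCF10A (adjusted p = 9.23e-15 and 2.83e-13). TMEM97, a regulator of NPC1, changed by -1.16 in MDA-MB-231 and by -1.12 in MCF10A (adjusted p = 1.27e-13 and 9.5e-14).

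In the cleavage and sensing machinery, MBTPS2, the intramembrane protease that frees SREBPs, changed by -1.48 in MDA-MB-231 and by -0.72 in MCF10A (adjusted p = 1.25e-14 and 3.13e-11), and ERLIN2, a membrane scaffold that takes part in the turnover of sterol sensors, changed by -1.39 in MDA-MB-231 and by -0.13 in MCF10A (adjusted p = 1.55e-14 and 0.00618). The difference of response, MDA-MB-231 minus MCF10A, was -1.26 for ERLIN2 and -1.10 for FNTB, the beta subunit of farnesyltransferase (adjusted p = 5.6e-12 and 4.63e-05). Between the lines, MYLIP, a ubiquitin ligase for lipoprotein receptors, was higher in MDA-MB-231 than in MCF10A by 3.63 under 2DG and by 3.33 on vehicle. MBTPS2 was lower in MDA-MB-231 (-1.79 under 2DG and -1.03 on vehicle), as was GGPS1 (-1.14 under 2DG and -1.60 on vehicle).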

How the data were processed

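RNA of MDA-MB-231 and MCF10A cells, with 2DG or vehicle, was measured on 16 arrays, and groups were taken from the sample labels. The authors deposited RMA values on the log2 scale, 1 per probe set, per the submitters' processing notes. Its version, and whether all arrays were normalized together, are not given in the sources used here. Array medians were 6.17 to 6.22. RMA gives no detection call, and precision is limited by the number of arrays. RNA was labelled from the 3' end, per the labels' protocols, so values can depend on RNA integrity. Of 54675 probe sets, 62 were controls, 41091 had 1 gene, 1801 had several and named none, and 11777 had no gene name. RefSeq (GRCh38.p14) held 41037 of the 41091 by Entrez gene number. Each of 19775 genes was represented by its brightest probe set.

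A linear model of 4 group means (limma 3.58.1, R 4.3.3, with lmFit and eBayes) was fitted to the log2 values of the 16 arrays and left 12 residual degrees of freedom. It gave 5 comparisons: the effect of 2DG in MDA-MB-231 and in MCF10A, their difference, and the lines under 2DG and on vehicle. Tests were two-sided. P-values were adjusted over all genes (Benjamini-Hochberg) and called under 0.05. The procedure was tested on simulated data.

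Values on every array are given for genes with a called 2DG change of at least 1 in size, genes called in opposite directions, and INSIG1, INSIG2, SREBF1 and SREBF2. Of the other pathway genes, at most the 4 largest called changes of at least 1 per comparison were eligible to be named. The genes and lists were chosen with earlier results of these data known. Alternatives covered the probe set rule, dim genes, the variance model, scaling, the actin ratio, the arrays fitted, a replicate block and leaving out each array. Values of single probe sets come from a fit over all 41091 probe sets, chosen after seeing the data.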

Additional observations from a re-analysis of the deposited data

Results flagged for a closer look

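In 13 of 108 groups of 4 values tested, the highest or lowest array lay far from the other 3 by Dixon's ratio at the 95% level. That level stands for about 5% of groups only where values are continuous, normal and independent. The values here were rounded, so ties raise the ratio, as for INSIG1 and INSIG2 below, and many groups share the same arrays. The count therefore cannot be set against 5%. In MDA-MB-231 vehicle, replicate B stood apart for the actin 3'/5' ratio (1.09, the others 0.38 to 0.47), the GAPDH 3'/5' ratio (0.40, the others 0.14 to 0.16), SCAP (10.26, the others 9.79 to 9.85) and INSIG2 (9.67, the others at 9.69), and replicate D for INSIG1 (9.61, the others at 9.70). In MDA-MB-231 with 2DG, the arrays apart were replicate C for MSMO1 (11.53, the others 11.43 to 11.44), replicate A for DHCR7 (8.33, the others 8.54 to 8.58) and replicate D for STARD4 (9.46, the others 9.60 to 9.62). In MCF10A with 2DG, replicate D was low for DHCR7 (10.11, the others 10.32 to 10.35) and STARD4 (9.98, the others 10.15 to 10.18), and replicate A was low for SREBF1 (8.59, the others 8.69 to 8.71) and SCAP (9.92, the others 9.97 to 9.98). In MCF10A on vehicle, replicate D was high for HMGCS1 (10.82, the others 10.76 to 10.77).

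The response to 2DG differed between the lines in the limma test for 15 genes, given as MDA-MB-231 minus MCF10A. Among the mevalonate genes the differences were -0.22 for ACAT2, 0.21 for HMGCS1, -0.16 for MVK and 0.31 for IDI1. Among the later enzymes they were -0.20 for LSS, 0.21 for NSDHL, 0.50 for HSD17B7, -0.85 for EBP, 0.14 for SC5D and -1.06 for DHCR7. Among the genes of control, transport and storage they were -1.04 for SREBF1, -0.53 for INSIG1, -0.75 for INSIG2, -0.54 for STARD4 and 0.77 for SOAT1. Several of the smaller differences were lost under other settings. That of MVK was lost when any of 6 arrays was left out (adjusted p = 0.0506 to 0.067), with array medians centred (adjusted p = 0.0949) and on the mean of its probe sets (adjusted p = 0.0743). That of NSDHL was lost when any of 4 arrays was left out (adjusted p = 0.0525 to 0.0566), on the mean of its probe sets (adjusted p = 0.0588) and without probe sets shared between transcripts (0.06, adjusted p = 0.455). That of SC5D was lost without MDA-MB-231 2DG replicate B (0.12, adjusted p = 0.056), without MDA-MB-231 vehicle replicate A (0.13, adjusted p = 0.0528) and on the mean of its probe sets (0.04, adjusted p = 0.768). That of HMGCS1 was lost with the actin ratio as a covariate (0.18, adjusted p = 0.0756).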

How the results depend on the processing

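The choice of probe set mattered most. With the mean of all probe sets, the median change of the 25 genes was 0.14 for 2DG in MCF10A, -0.45 for the lines under 2DG and -0.38 for the lines on vehicle, and 2 genes had a higher response in MDA-MB-231. IDI1 then changed by 0.09 in MCF10A with a difference of response of -0.07, SOAT1 by -0.95 in MDA-MB-231 with a difference of -0.08, and LSS had a difference of 0.13. Without probe sets shared between transcripts 19 of the genes were tested. The medians were then 0.04 for 2DG in MDA-MB-231, 0.25 for 2DG in MCF10A, -0.55 for the lines under 2DG and -0.42 for the lines on vehicle, with 5 genes lower with 2DG in MCF10A and 2 with a higher response in MDA-MB-231. SC5D then gave -0.40 in MDA-MB-231, -0.35 in MCF10A and a difference of -0.05, and IDI1 gave 0.58 in MCF10A, a difference of -0.49, and 0.47 for the lines under 2DG and 0.96 on vehicle. With the actin ratio added to the fit, the median became -0.14 for the difference of response and -0.73 for the lines under 2DG, and SCAP gave -0.21 in MDA-MB-231 and -0.26 for the lines under 2DG. This adjustment rests largely on MDA-MB-231 vehicle replicate B, as given above. The cause of these shifts was not tested. Leaving out 1 array in turn, the median difference of response ran from -0.11 to 0, with 0 reached without MDA-MB-231 vehicle replicate B.

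Same-letter replicates were not paired in the main fit, because the study describes the replicates of a group as independent. Their deviations from the group means correlated at -0.10 to 0.09. Each MCF10A 2DG array correlated best with the vehicle array of its own letter, which did not hold in MDA-MB-231. With the replicate letter as a block (replicate block), all 125 gene results kept their side of the threshold. This left 9 genes higher and 11 lower in MDA-MB-231, and 12 higher and 8 lower in MCF10A. Every letter occurs in every group, so the block cannot move a change or its direction. It can alter only the standard errors, and through them the calls. Leaving out 1 array kept 1162 gene results on their side of the threshold, ended 28 calls and made 10.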
